A study of Homo sapiens with 3 samples.

Results

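The BCL2 family decides whether a stressed cell keeps its mitochondria intact. The 10 genes described here were 3 survival members (MCL1, BCL2L1 and BCL2A1), 2 effectors (BAX and BAK1) and 5 BH3-only members (BCL2L11, BBC3, PMAIP1, BID and BIK). Members were found by gene symbol, each array probe being assigned to a gene through its transcript accession. All 10 genes had a probe, with 15 probes in all, out of 19699 genes on the array. BCL2A1, BAX, BCL2L11 and BID had several probes, and the other 6 genes had 1 probe each.

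PANC-1, an established human pancreatic ductal carcinoma line, was grown in DMEM with serum and sampled on 3 arrays with 1 array per group. The control cells received no agent, and treated cells received cantharidin (CAN) or okadaic acid (OA) for 24 h. The label of each treated sample gives 20 µM of its agent, although the shared treatment text can also be read as giving that dose for CAN alone. CAN and OA are inhibitors of protein phosphatase 2A (PP2A), which takes phosphate groups off many kinases and regulatory proteins. Total RNA was labelled with Cy3 and each array measured the brightness of its spots. With 1 array per group there was no replicate and no test, so each difference compares single arrays. The arrays were in different positions of 1 slide, and position and treatment cannot be told apart.

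Survival members of the family hold the outer mitochondrial membrane closed by binding the effectors and the BH3-only proteins. BH3-only proteins are sensors of damage, and they occupy the survival members or activate the effectors directly. Free BAX and BAK1 form pores, cytochrome c leaves the mitochondrion, and caspases are switched on. In many tumours the balance between these proteins is set both by transcription and by phosphorylation and protein turnover. The arrays measured only the first of these.

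Promoter sequence was looked up for all 10 members, so that the letters of known response elements could be set beside the values. RefSeq promoters of build GRCh38.p14 were found for 8 of the 10 members, MCL1 and BIK being the others, and the 250 bases before the transcription start were searched on both strands for 8 motifs. Below are those of BCL2A1, BCL2L11 and PMAIP1, which were higher with both agents, of BBC3, which differed in opposite directions, and of BID, which was lower with both. They run 5′ to 3′ on the strand of the gene and capitals mark the motif matches other than GC boxes.
BCL2A1, chr15:79971197-79971446, minus strand: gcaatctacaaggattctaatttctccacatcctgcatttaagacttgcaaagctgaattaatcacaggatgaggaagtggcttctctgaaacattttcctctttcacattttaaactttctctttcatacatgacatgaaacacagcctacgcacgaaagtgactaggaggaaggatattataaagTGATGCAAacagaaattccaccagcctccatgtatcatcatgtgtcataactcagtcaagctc
BCL2L11, chr2:111120664-111120913, plus strand: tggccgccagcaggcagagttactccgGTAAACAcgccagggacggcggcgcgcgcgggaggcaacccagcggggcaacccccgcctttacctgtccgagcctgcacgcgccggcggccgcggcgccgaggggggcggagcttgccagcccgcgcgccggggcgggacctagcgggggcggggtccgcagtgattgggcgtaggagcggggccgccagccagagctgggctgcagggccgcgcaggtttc
PMAIP1, chr18:59899746-59899995, plus strand: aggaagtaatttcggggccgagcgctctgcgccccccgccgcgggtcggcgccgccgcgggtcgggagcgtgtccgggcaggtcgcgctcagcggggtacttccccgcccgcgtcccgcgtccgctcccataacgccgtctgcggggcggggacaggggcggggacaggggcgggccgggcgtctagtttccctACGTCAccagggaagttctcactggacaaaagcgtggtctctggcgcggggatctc
BBC3, chr19:47232668-47232917, minus strand: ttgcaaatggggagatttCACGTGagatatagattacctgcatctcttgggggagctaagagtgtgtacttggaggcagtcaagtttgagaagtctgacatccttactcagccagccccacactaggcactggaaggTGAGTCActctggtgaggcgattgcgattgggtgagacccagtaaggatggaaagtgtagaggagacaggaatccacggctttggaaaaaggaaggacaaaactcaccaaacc
BID, chr22:17774666-17774915, minus strand: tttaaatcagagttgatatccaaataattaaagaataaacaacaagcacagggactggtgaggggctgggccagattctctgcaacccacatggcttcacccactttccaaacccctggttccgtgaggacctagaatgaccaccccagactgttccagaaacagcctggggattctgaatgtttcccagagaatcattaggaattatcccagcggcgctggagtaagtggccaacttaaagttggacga

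BCL2A1 held TGATGCAA, a composite site of C/EBP and ATF factors, 63 to 56 bases before its start, and 0.772% of all 35116 promoters in the table held these letters. BCL2L11 held the forkhead (FOXO) letters GTAAACA 223 to 217 bases before its start, which 2.98% of promoters held. PMAIP1 held the cyclic AMP response element core TGACGT on the opposite strand, 56 to 51 bases before its start, as did 7.1% of promoters. BBC3 held the E-box CACGTG, found in 6.34% of promoters, and the AP-1 letters TGANTCA, found in 6.57%. BID held none of the 8 motifs in the window used, which was the one nearest to the gene start among 5 in the table. Among the promoters not shown, that of BAK1, which was also higher with both agents, held none of the motifs but the GC box. BAX held 4 E-boxes within 138 bases of its start. BCL2L1, for which the window nearest to the gene start among 2 was used, held the E2F letters TTTNGCGC, present in 1.51% of promoters. The GC box GGGCGG was in 42.6% of promoters and occurred 4 times in PMAIP1, 3 times in BCL2L11, 2 times in BAK1 and once in BAX. The NF-κB consensus was in 9.96% of promoters and in none of the 8. Matches of different motifs did not overlap in these windows. The motifs were chosen with these sequences in view, so the shares over all promoters do not measure how unusual a match is here. A match is a description of letters and not of binding, and a window without a match says nothing about the factor.

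All 15 member probes were well above background on all 3 arrays, and no spot was saturated. The dimmest, BIK on the control array, was at 1.76 times the lowest signal that counted as well above background there. Over the whole array, 23071 to 25103 of 34041 probes were well above background. The PANC-1 markers KRT7, KRT8, KRT18, KRT19 and VIM were well above background on every array, while CDH1 was so only on the control array. Of 12 markers of immune, endothelial, fibroblast, acinar and endocrine cells, 9 were well above background on each array, with summed intensities of 4960 for control, 4173 for CAN and 13844 for OA. CD14 made up 2535, 1838 and 11044 of these sums. LUM, CPA1 and PECAM1, the last by its probe of highest mean signal, were below background on every array. The part of these markers in the results was not tested.

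Values below are spot intensities, and differences are on the log2 scale after each array was set to its own 75th percentile. Because each array is scaled to itself, a difference is a change relative to the other transcripts. Fewer cells with a transcript and less of it per cell cannot be told apart. The noise SD beside a difference came from replicate spots of similar brightness on the same arrays, and it leaves out the variation between cultures. For BCL2L1 and the first BAX probe it came from the probe's own spots and is that of their mean, which is smaller than the SD of a single spot. A difference was counted when it reached 1.5-fold, the threshold of the study, which equals 0.585 on the log2 scale.

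Treatment with CAN left 5 of the 10 members higher than control (BCL2A1, BAK1, BCL2L11, PMAIP1 and BIK) and 3 lower (BCL2L1, BBC3 and BID). Across all 16644 genes compared, 27.5% were higher and 34.1% were lower by the same measure. With OA, 6 members were higher (the same 5 and BBC3) and 2 were lower (BAX and BID), beside 28.1% higher and 28.8% lower among all 16166 genes compared. The median difference of the members was 0.33 with CAN and 0.67 with OA, and that of all genes was -0.16 and 0.01. The agents share their single control array. With such shares over all genes, these counts over 10 genes do not set the family apart.

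**Figure D1:**
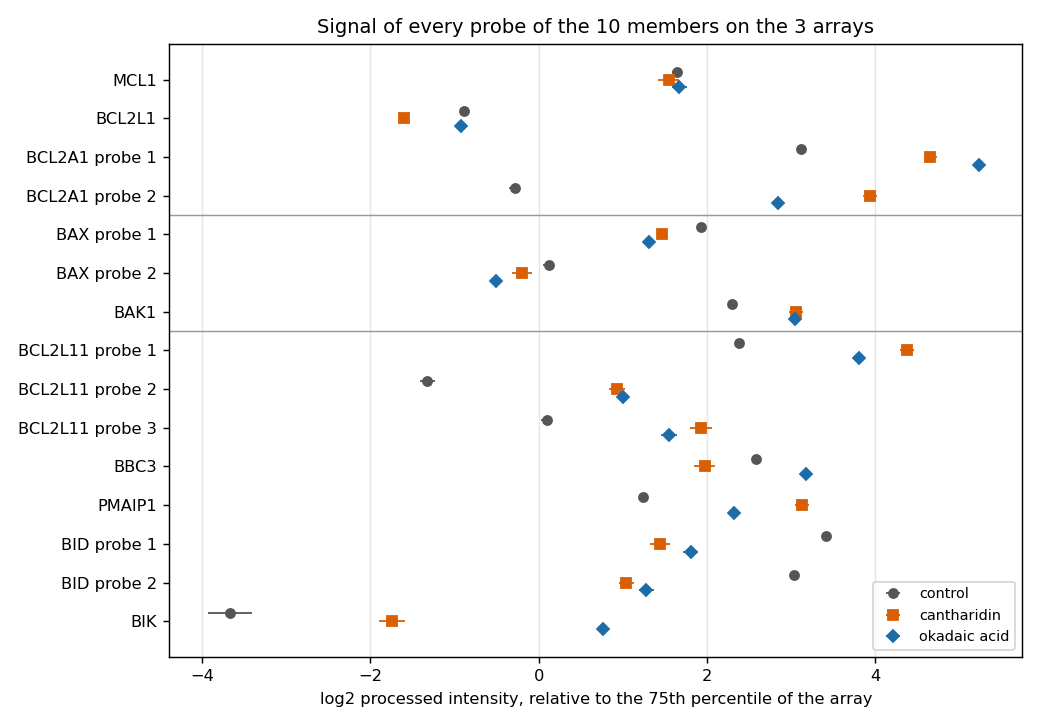
Signal of each of the 15 probes on the control, CAN and OA arrays, as log2 intensity relative to the array's 75th percentile, with the survival members at the top, the effectors in the middle and the BH3-only members at the bottom. Bars are the spot noise SD of the signal. The BIK probe spans 4.43 from control to OA, and the MCL1 symbols overlap.

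The survival members went in different directions. MCL1, a short-lived protein that restrains BAK1 and several BH3-only proteins, had an intensity of 2450 in control cells, 2080 with CAN and 2990 with OA. Its log2 difference was -0.10 with CAN and 0.03 with OA, each within its noise SD of 0.14 and 0.10. The MCL1 transcript therefore did not differ measurably between the arrays, and the sign of the OA value turned to -0.09 when the arrays were scaled to their median.

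BCL2L1 encodes BCL-xL, the survival protein of the outer mitochondrial membrane. Its intensity was 422 in control cells, 235 with CAN and 496 with OA. It was 1.63-fold lower with CAN (-0.71 on the log2 scale, noise SD 0.07), whereas the OA difference was -0.03 (noise SD 0.06). The probe was printed in 10 spots, of which 9 in control, 9 with CAN and 10 with OA carried no outlier flag and were used. The spot intensities ran from 355 to 467 in control, from 172 to 274 with CAN and from 444 to 580 with OA. Of the spots used, no CAN spot overlapped a control spot on this scale, nor after scaling (-2.05 to -1.38 against -1.14 to -0.75). The spots left out were brighter than the others on their array, with 536 in control and 441 with CAN. By intensity the CAN spot left out lay within the range of the control spots used. After scaling it was at -0.69, above all of them. With both kept, BCL2L1 differed by -0.65 with CAN.

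BCL2A1, a survival member that is a known NF-κB target, was higher with both agents on both of its probes. Its first probe, which had the higher mean signal and stands for the gene, gave 6836 in control, 18005 with CAN and 35181 with OA. That was 2.90-fold higher with CAN (1.54, noise SD 0.09) and 4.31-fold higher with OA (2.11, noise SD 0.08). The second probe gave 644, 10934 and 6723, which was 18.7-fold higher with CAN and 8.74-fold higher with OA. The probes thus shared the direction against control and differed in size. They also disagreed on which agent gave more, with OA over CAN at 0.57 on the first probe and -1.10 on the second.

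The effectors BAX and BAK1 differed in opposite directions. BAX waits in the cytosol and inserts into the membrane on activation. Its first probe, with 10 spots, gave 2997 in control, 1969 with CAN and 2318 with OA. It was 1.38-fold lower with CAN (-0.47, noise SD 0.03), under the threshold, and 1.54-fold lower with OA (-0.63, noise SD 0.03). The 10 spots ran from 2706 to 3209 in control, from 1737 to 2042 with CAN and from 2217 to 2404 with OA, so neither treated array overlapped the control spots. The second probe gave 853, 621 and 659, with differences of -0.32 with CAN and -0.63 with OA. On both probes BAX was lower with each agent, and the OA value lay close to the threshold, falling short of it under 4 of 11 alternative processing settings.

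**Figure D2:**
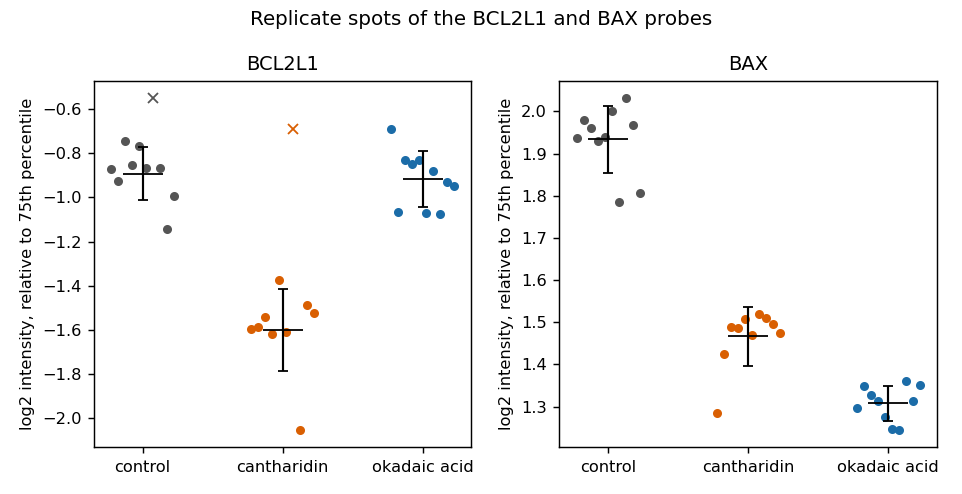
Replicate spots of the BCL2L1 and BAX probes on each array, as log2 intensity relative to the array's 75th percentile. Dots are single spots, crosses are spots with outlier flags that were left out, and bars are the mean ± SD of the spots used. For BCL2L1 the CAN spots used lie below those of control and OA while the CAN spot left out (cross) lies at the top of the OA range, and for BAX the CAN and OA spots both lie below those of control.

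BAK1 resides in the outer mitochondrial membrane, where MCL1 and BCL-xL hold it inactive. Its intensity was 3866 in control, 5947 with CAN and 7769 with OA. BAK1 was 1.69-fold higher with CAN (0.76, noise SD 0.10) and 1.68-fold higher with OA (0.75, noise SD 0.08). The values of the agents differed from each other by -0.01 (noise SD 0.10), which was less than the noise.

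By the probes that stand for the genes, BIK had the largest difference with OA, and with CAN the sizes of BCL2L11, BID, BIK and PMAIP1 lay within their noise of each other. With CAN 3 of the 5 were higher and 2 lower, with a median of 1.88, and with OA 4 were higher and 1 lower, with a median of 1.07. BCL2L11 encodes BIM, which binds every survival member and can activate the effectors. Its first probe gave 4089 in control, 14859 with CAN and 13083 with OA, which was higher by 2.00 on the log2 scale with CAN (noise SD 0.09) and 2.68-fold higher with OA (1.42, noise SD 0.08). The second probe gave 314, 1356 and 1873, 4.76-fold and 5.00-fold higher. The third gave 839, 2713 and 2742, 3.56-fold and 2.74-fold higher. All 3 BCL2L11 probes were thus higher with each agent.

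PMAIP1 encodes NOXA, which binds mainly MCL1 and promotes its loss. Its intensity was 1859 in control, 6229 with CAN and 4673 with OA. PMAIP1 was 3.69-fold higher with CAN (1.88, noise SD 0.10) and 2.11-fold higher with OA (1.07, noise SD 0.08). By the probes that stand for the genes, it was the only member lower with OA than with CAN past the threshold, by 1.75-fold, a difference that shrank to -0.41 when the arrays were not scaled.

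BIK, a BH3-only protein found largely at the endoplasmic reticulum, was higher with both agents. Its intensity was 61.6 in control, 213 with CAN and 1585 with OA. BIK was 3.81-fold higher with CAN (1.93, noise SD 0.30) and 21.6-fold higher with OA (4.43, noise SD 0.27). Among all genes compared, the OA difference stood at percentile 99.4 and the CAN difference at percentile 91.0. Its control signal was near background, and the size of the difference changed with the processing. On the log2 scale it ran from 1.12 with CAN and 3.24 with OA under the normexp background correction to 2.42 and 5.07 in the deposited normalized table.

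BBC3 encodes PUMA, a classic target of p53, and differed from control in opposite directions. Its intensity was 4707 in control, 2800 with CAN and 8486 with OA. BBC3 was 1.53-fold lower with CAN (-0.61, noise SD 0.14) and 1.51-fold higher with OA (0.59, noise SD 0.08). OA over CAN, which does not use the control array, was 2.31-fold (1.21, noise SD 0.14). Each difference from control lay just past the threshold, and 3 settings for CAN and 1 for OA left it just short. The signs did not change under any setting tried, with -0.75 to -0.54 for CAN and 0.47 to 0.85 for OA.

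BID, which caspase-8 cuts so that death receptor signals reach the mitochondrion, was the member with the lowest differences. Its first probe gave 8415 in control, 1940 with CAN and 3274 with OA. It was 3.94-fold lower with CAN (-1.98, noise SD 0.13) and 3.07-fold lower with OA (-1.62, noise SD 0.10). The second probe gave 6428, 1469 and 2277, 3.98-fold and 3.37-fold lower. Both probes therefore gave nearly equal differences. Among all genes compared, BID stood at percentile 8.80 with CAN and 10.0 with OA.

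**Figure D3:**
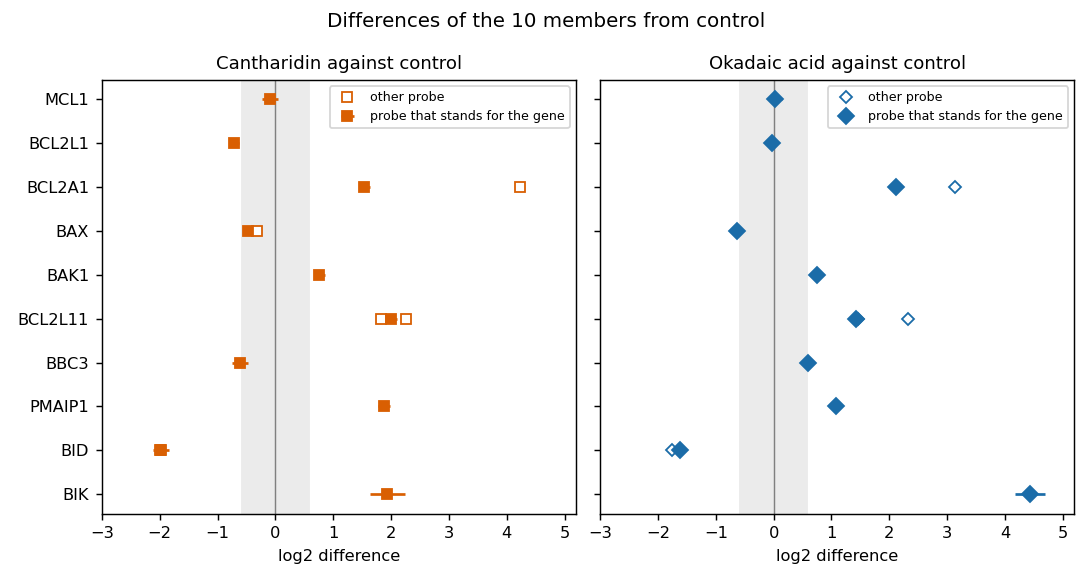
Log2 difference of each member from control with CAN (left) and OA (right). Filled symbols are the probe that stands for the gene, open symbols the other probes (hidden where probes coincide), bars the noise SD, and the grey band marks differences under 1.5-fold. BID lies left of the band on both sides, BCL2A1, BAK1, BCL2L11, PMAIP1 and BIK lie right of it on both, and BBC3 changes sides.

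**Figure D4:**
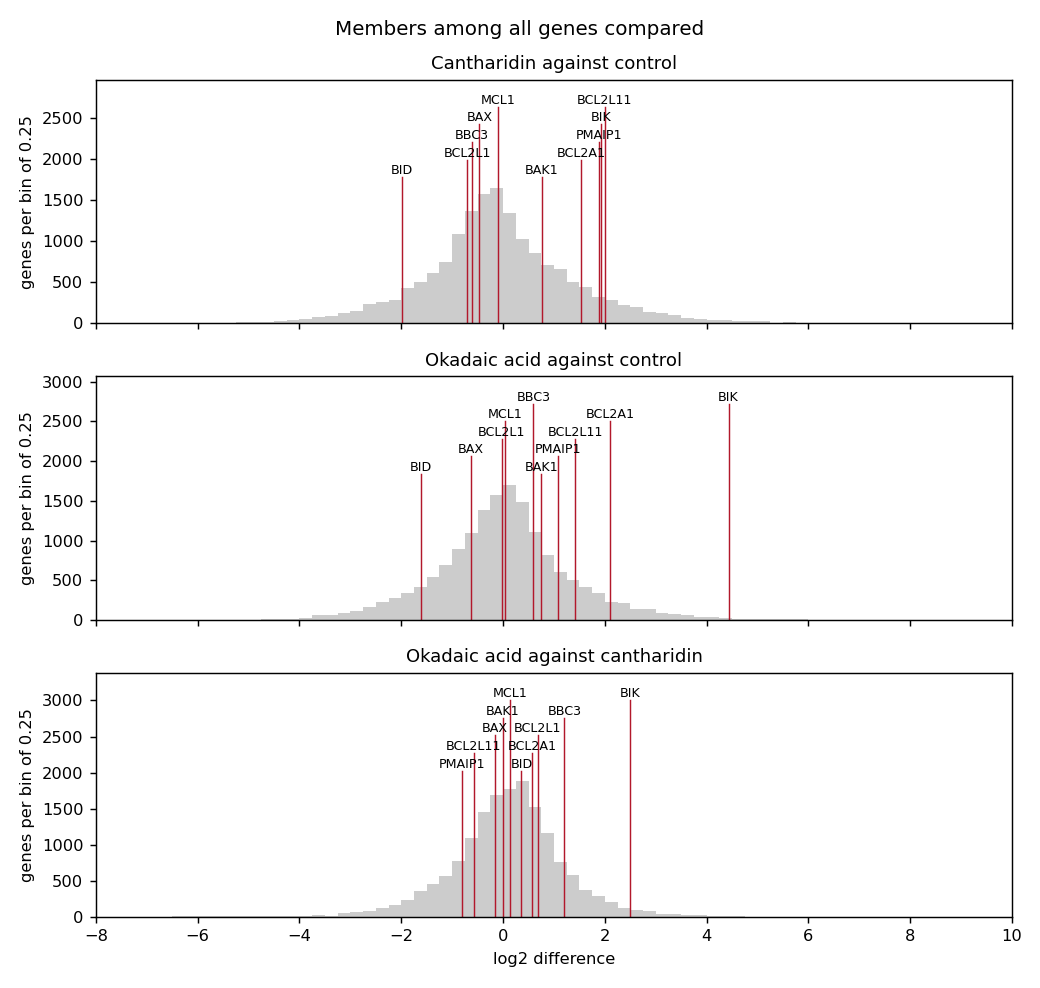
Histograms of the log2 difference over all genes compared (grey, genes per bin of 0.25), with the 10 members as red lines, for CAN against control, OA against control and OA against CAN. Most members lie inside the bulk of the histogram, and BIK with OA lies in the right tail at 4.43.

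The agents were then set against each other directly. OA was above CAN by at least 1.5-fold for 3 members, BCL2L1, BBC3 and BIK, and below it for 1, PMAIP1. Among 16200 genes compared, 29.5% were higher and 22.3% were lower with OA than with CAN. BIK was 5.66-fold higher with OA (2.50, noise SD 0.17) and BCL2L1 1.60-fold higher (0.68, noise SD 0.07). The latter fell short of the threshold under normexp and median scaling, with 0.53 at the lowest. BCL2L11 was 1.49-fold lower with OA on its first probe (-0.58, noise SD 0.10), just under the threshold. The difference of MCL1 was 0.13 (noise SD 0.15) and that of BID 0.36 (noise SD 0.15).

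**Figure D5:**
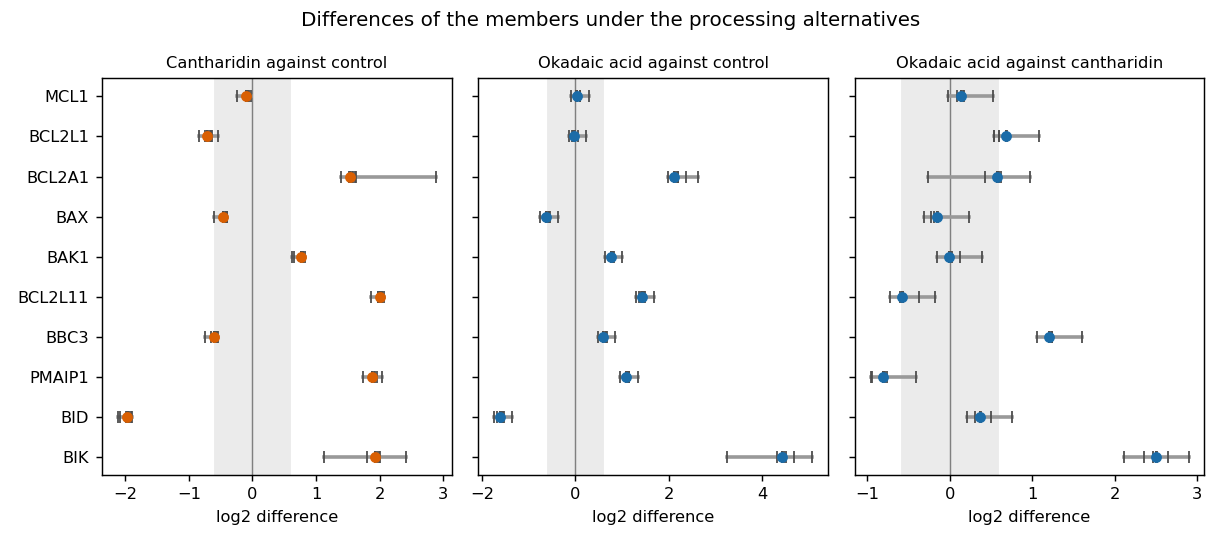
Log2 difference of each member under the processing settings tried, for CAN against control, OA against control and OA against CAN. Dots are the values reported, ticks the 11 alternatives, grey lines their range and the grey band differences under 1.5-fold. The range crosses 0 for BCL2A1 in the direct comparison of the agents (-0.26 to 0.97) and stays on the right of the band for BCL2L11 against control.

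Around these members, 12 further genes of the family and other genes of the pathway were looked up. Their counts stand beside the shares over all genes given above, 27.5% higher and 34.1% lower with CAN and 28.1% and 28.8% with OA, and nothing particular to a list is read from them. In the family, with CAN 4 of 11 compared were higher and 5 lower, and with OA 3 of 10 were higher and 2 lower, with medians of -0.05 and 0.12. BCL2, the founding survival gene, had an intensity of 86.9 in control and was below background with both agents, at least 3.21-fold lower with CAN and at least 1.79-fold lower with OA. BCL2L2 (BCL-w, a survival member) gave 2440, 1074 and 3292 for control, CAN and OA, which was 2.06-fold lower with CAN and 0.18 on the log2 scale with OA. BCL2L10, another survival-type member, was well above background only with CAN, where it was at least 4.94-fold above control. These bounds hold for the processed signal only, since under normexp the log2 differences were -0.63 and -0.85 for BCL2 and 1.31 for BCL2L10 with CAN.

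BOK, an effector-like member, gave 569, 264 and 229, 1.96-fold lower with CAN and 2.97-fold lower with OA. HRK, a BH3-only gene known from neurons, gave 204, 1012 and 1254, 5.46-fold and 5.15-fold higher. BMF, a BH3-only gene, gave 188, 46.5 and 343, and like BBC3 it differed in opposite directions, 3.68-fold lower with CAN and 1.53-fold higher with OA. The OA value of BMF fell short of the threshold under normexp (0.37), median scaling (0.49) and quantile normalization (0.53), and its CAN value was -1.11 under normexp against -1.88. BAD, whose activity is set mainly by phosphorylation, gave 970, 853 and 886, with differences of -0.05 and -0.39.

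BNIP3, a mitochondrial protein with a role in mitophagy, gave 22106, 83601 and 56241, 4.16-fold higher with CAN and 2.13-fold higher with OA. Its relative BNIP3L had probes that disagreed. The one that stands for the gene differed by 0.08 with CAN and 0.45 with OA, and the other by -1.92 and -1.98. BCL2L13, a mitophagy receptor of the family, gave 772, 2490 and 958, 3.55-fold higher with CAN and 0.06 on the log2 scale with OA, and all 3 of its probes were higher with CAN. BCL2L15 gave 663, 316 and 618, with a difference of -0.93 with CAN that turned to 0.15 when the median over its probes was used. BCL2L14 was below background on every array.

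The lists that follow give counts, the genes with the largest differences, and further genes chosen after their values were seen. Downstream of the mitochondrion, the list of caspases and the apoptosome had 3 of 8 genes higher and 0 lower with CAN, and 5 of 9 higher and 1 lower with OA. CASP9, the caspase that the apoptosome activates, gave 1108, 3306 and 10570 and was 3.28-fold and 7.99-fold higher. APAF1, the scaffold of the apoptosome, was above background only with OA, at least 3.21-fold above control, but under normexp its difference was 0.94. CASP10 was 1.89-fold higher with CAN and 2.25-fold higher with OA on the probe that stands for it. Its other probes were not well above background on any array. CASP8, which cuts BID, was 1.60-fold higher with CAN. CYCS, cytochrome c, gave 29056, 28122 and 72808 and was 2.10-fold higher with OA. CASP6 was below background with OA and at least 2.60-fold lower there, a bound for the processed signal only. With CAN the lowest difference among genes measured on both arrays was 0.09, for CYCS. Of 8 inhibitors of apoptosis and their antagonists, 3 were higher and 2 lower with CAN, and 5 were higher and 1 lower with OA. BIRC3, an NF-κB target, gave 1348, 4428 and 12147, 3.61-fold and 7.55-fold higher. BIRC2 (2.37-fold and 1.77-fold) and HTRA2, an antagonist released from mitochondria (3.20-fold and 3.36-fold), were also higher with both agents, and XIAP (1.69-fold) and BIRC6 (2.82-fold) with OA. BIRC5, survivin, which also serves in mitosis, gave 29369, 1118 and 2689, 23.9-fold and 13.0-fold lower, and BIRC7 was 2.33-fold lower with CAN.

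In the death receptor pathway, 5 of 11 genes were higher and 3 lower with CAN, and 4 of 11 were higher and 2 lower with OA. RIPK1, a kinase of the TNF receptor complex, gave 238, 1913 and 754, 8.85-fold and 2.66-fold higher. TNFRSF10B, the death receptor DR5 for the ligand TRAIL, gave 8612, 58610 and 14826, 7.49-fold higher with CAN and 0.53 on the log2 scale with OA. The TRAIL decoy receptor TNFRSF10D gave 4340, 18089 and 5073 and was 4.59-fold higher with CAN. FADD, the adaptor that recruits caspase-8, was 3.53-fold and 2.28-fold higher, and TNFRSF10A 1.74-fold and 1.83-fold. TNFRSF10C was at least 3.32-fold higher with OA, a bound for the processed signal only, as its control signal of 33.6 was below background. TNFRSF1A, a receptor of TNF, gave 4475, 1098 and 1175, 3.70-fold and 4.55-fold lower. FAS (2.16-fold) and TNFSF10, which encodes TRAIL (2.07-fold), were lower with CAN, and TRADD (2.70-fold) was lower with OA. The probes of TNFSF10 disagreed on OA. The one that stands for the gene differed by -0.35, and the other was below background with both agents. On the processed signal that other probe was at least 8.46-fold lower with CAN and at least 4.19-fold lower with OA. Among genes of MCL1 turnover, 2 of the 3 compared were higher with each agent and 0 were lower. FBXW7, a ubiquitin ligase subunit that recognises MCL1, gave 210, 533 and 2320, 2.79-fold and 9.24-fold higher. BTRC, another ligase subunit, was 2.59-fold and 4.98-fold higher. Its control signal of 46.8 was near background, at 1.34 times the lowest signal that counted as well above it. Its folds were not followed through the processing alternatives, and neither were those of the other genes named after their values were seen. HUWE1, a further ligase of MCL1, differed by -0.39 and -0.29.

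Of 13 transcription factors known to act on the members, 5 were higher and 3 lower with each agent, with 13 compared for CAN and 12 for OA. RELA, the NF-κB subunit p65, gave 1281, 5618 and 2825 and was 4.83-fold higher with CAN and 1.85-fold higher with OA. NFKB1 gave 656, 1312 and 2737 and was 2.2-fold higher with CAN and 3.49-fold higher with OA. MYC gave 88284, 5890 and 18519 and was 13.6-fold lower with CAN and 5.69-fold lower with OA. E2F1 gave 658 in control and 118 with OA, 6.66-fold lower, and was below background with CAN, at least 21.3-fold lower. Under normexp its log2 differences were -2.61 with CAN and -2.04 with OA. ATF4, the stress factor that partners C/EBP proteins, gave 48802, 123270 and 99077, 2.78-fold and 1.70-fold higher. TP63 counted as higher with CAN only through a signal near background, for which no fold is given. FOXO3 gave 4646, 3531 and 15199 and was 2.74-fold higher with OA on the probe that stands for it. FOXO1, of the forkhead family known to act on BCL2L11, was 2.22-fold lower with CAN and 2.10-fold higher with OA. Under normexp the CAN value of FOXO1 was -0.49, short of the threshold. DDIT3, a factor of the endoplasmic reticulum stress response, was 3.44-fold higher with CAN and 1.52-fold lower with OA, the latter short of the threshold under 5 settings (-0.57 to -0.35).

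Of the 3 mitochondrial outer membrane channels, 0 were higher and 2 were lower with CAN, and 0 were higher and 1 was lower with OA. VDAC1, the main channel of that membrane, gave 42685, 17872 and 18159, 2.17-fold and 2.81-fold lower, and VDAC3 was 1.96-fold lower with CAN. VDAC2, a channel that binds BAK1, gave 54149, 55392 and 75069, with differences of 0.17 and 0.22. Over all 61 pathway genes, 22 of 57 compared were higher and 15 lower with CAN, and 24 of 56 were higher and 10 lower with OA. Over all genes 27.5% were higher and 34.1% lower with CAN, and 28.1% and 28.8% with OA. The medians were 0.17 and 0.30, beside -0.16 and 0.01 for all genes.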

How the data were processed

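PANC-1 RNA from control, cantharidin and okadaic acid cells was measured on 3 Agilent one-colour arrays, grouped by sample title. The authors deposited spot intensity values that Feature Extraction 11.0.1.1 had produced. These were background-corrected, per the file headers, within each array and annotated on hg19, with no scaling between arrays. A second deposited table holds normalized log2 values, whose making is not given in the sources used here, and it served as an alternative.

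For 34041 probes, log2 intensity was averaged over the spots that carried no outlier flag, and the 75th percentile of each array was subtracted (intensities of 784, 713 and 936). Transcript accessions matched to RefSeq named 25705 probes and 19699 genes. The probe of highest mean signal stood for a gene, which was compared when that probe was well above background on either array of the pair. Where it was so on only 1 of them, the fold is a lower bound ("at least"), with the dim signal raised to the lowest one well above background on its array where it was under that. Differences as measured were counted at 1.5-fold with no test. Noise SDs came from the probe's own 10 spots or from 10-spot probes within 0.5 log2 units of its brightness. Each variance was divided by the number of spots used for the probe.

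By rule, named genes were all members, the detected genes of the rest of the family, and from each other list the largest change each way per agent among genes measured on both arrays, and genes past the threshold in opposite directions. Further genes of these lists were named after their values were seen. Some genes of the lists are counted but not reported here by name. The members and lists were chosen with earlier results of these data known, and the motifs with the promoter sequences in view. Alternatives were the normexp correction (offset 50, median spot and background intensity), other scalings, other filters on dim probes, the deposited log2 table, a 2-fold threshold and the median over probes. Keeping spots with outlier flags, and the alternatives for pathway genes, were chosen after seeing the data. The counting step was tested on simulated data. Software was limma 3.58.1 in R 4.3.3, and in Python 3.11.15 the packages matplotlib 3.10.9, scipy 1.17.1, pandas 2.3.3 and numpy 2.4.6. Precision is limited by having 1 array per group.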

Additional observations from a re-analysis of the deposited data

How the results depend on the processing

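Against control, MCL1, BCL2A1, BAK1, BCL2L11, PMAIP1, BID and BIK stayed on their side of the 1.5-fold threshold under all 11 alternatives for both agents. With CAN, BCL2L1 fell short under normexp (-0.54), BAX passed without scaling (-0.61), and BBC3 fell short under 3 settings. Counts of members within 1.5 times the value reported numbered 61 of 72, and for pathway genes 71 of 72. Single differences moved by more than their noise SD in 73 of 330 cases for members and in 232 of 916 for pathway genes named by rule. The further genes named after their values were seen are not among the 916. The number of members lower with CAN was 1 at the 2-fold threshold. The number lower with OA was 1 with the scaling percentile taken only over probes well above background, with quantile normalization, without scaling, with the deposited table and at the 2-fold threshold. OA below CAN held for 2 members with normexp and with median scaling, and for 0 without scaling and at the 2-fold threshold. OA above CAN held for 5 members without scaling, and for 13 pathway genes at the 2-fold threshold. BCL2L15 with CAN turned to 0.15 with the median over its probes. Without scaling, the median of all genes was -0.30 for CAN, 0.26 for OA and 0.52 for OA against CAN, so those values are best read against that shift. All member probes were well above background on every array. Setting dim signals to the floor and both filters on dim probes therefore could not change a member's value. These settings are part of the alternatives and member tallies above, where their outcome was fixed. Keeping spots with outlier flags changed no member's side of the threshold, and among the members it altered only BCL2L1. No paired analysis was possible because each group had 1 array. Signal over background limited BIK most among the members.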

Other observations

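Multiplying all intensities of an array by 1 factor leaves a ratio between 2 transcripts on it unchanged. The ratio does change under quantile normalization, the normexp correction and the deposited normalized values. With OA, the BIK difference from control was 3.24 under normexp and 5.07 in the deposited values, and that of MCL1 was 0.02 and 0.11. Set against MCL1, which hardly differed between the arrays, BIK was higher by 2.03 on the log2 scale with CAN and by 4.40 with OA, and PMAIP1, whose protein binds MCL1, by 1.98 and 1.04. BCL2L11 was higher than MCL1 by 2.10 and 1.39 in these differences, and BCL2A1 by 1.63 and 2.08. BAK1 gave 0.86 and 0.72. The values of BID were -1.88 and -1.65, and those of BAX -0.37 and -0.66. BCL2L1 gave -0.61 with CAN and -0.06 with OA, and BBC3 gave -0.51 and 0.56. These ratios show unequal change within the family and not which of the transcripts changed.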
